A study of Homo sapiens with 9 samples.

Results

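The mitochondrial genome transcripts of undifferentiated Caco-2 cells (uCaco-2) were taken as every row of the counts table whose symbol begins with MT-, which gave 37 of 60591 symbols. They comprise 13 mRNAs, 2 rRNAs and 22 tRNAs. All 13 mRNAs, both rRNAs and 5 of the 22 tRNAs passed the filter on low counts, so 20 of the 37 rows were among the 15944 symbols tested.

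Caco-2 is an established human colorectal adenocarcinoma line used as a model of intestinal epithelium, and all libraries came from this line alone. Cells were kept for 24 h in medium with 300 µM cobalt chloride (CoCl2 group), in medium with 5 µM of the oxyquinoline derivative 4896-3212 (OD group), or in fresh medium (Control group), and all 9 cultures held 0.5% DMSO. Each group had 3 biological replicates, and RNA was sequenced as 75-nt single-end reads from poly(A)-selected libraries. The study used both compounds as chemical activators of the HIF pathway, the main transcriptional response to low oxygen.

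The human mitochondrial genome is a small circle that encodes subunits of respiratory complexes I, III and IV and of ATP synthase (complex V), together with the rRNAs and tRNAs of the mitochondrial ribosome system. Both strands are copied as long polycistronic precursors by the polymerase POLRMT with its factors TFAM and TFB2M, and the tRNAs that lie between the other genes are cut out to release mRNAs and rRNAs. Most mature mitochondrial mRNAs then receive a poly(A) tail and the rRNAs a short oligo(A) tail, and MT-ND6, the one mRNA of the light strand, is known to lack a long tail. In libraries selected by poly(A), the amount of a transcript and the tailed part of it cannot be told apart, and in bulk samples fewer cells of a type and less RNA per cell cannot be told apart either.

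Total counts ran from 15998136 to 24209427 per library. The normalization factors (TMM) stood apart in the CoCl2 libraries, at 0.770 to 0.795 against 1.11 to 1.15 in all others, so CoCl2 values depend on the scaling, and this is given beside the results it touches. Of 10 epithelial markers, CDX1 was at 0 in every library and 9 were tested, and their summed level was 11105 to 11646 CPM, that is, counts divided by the scaled size of the library in Control, 13310 to 14266 CPM in CoCl2 and 10569 to 11123 CPM in OD. VIL1, an actin-bundling protein of the brush border, was at 613 CPM in Control, 112 CPM in CoCl2 and 454 CPM in OD on average. Of 12 markers of leukocytes, endothelium, fibroblasts and muscle, 6 were tested and the list summed to 110 to 122 CPM in Control, 99.4 to 102 CPM in CoCl2 and 88.5 to 93.3 CPM in OD, most of it from PDGFRA. PTPRC and COL1A2 had 0 to 3 counts in any library. Other tested members had more, with COL1A1 at 135 to 480 counts a library and CD14 at 35 to 101. PECAM1 had 20 to 55, PDGFRB 8 to 127 and VWF 6 to 20. The part of these differences in the results below was not tested.

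The genes of the mitochondrial genome lie almost without spacers. Of the 36 pairs of neighbours, 31 overlapped or were at most 3 nt apart, and the largest gap was 31 nt. A 75-nt read can therefore reach over a gene boundary. The boundaries at which the measured changes turned, or where a read belongs to more than 1 gene, are shown here as the forward (light-strand) sequence of chrM in the GRCh38 reference, 5′ to 3′. They were chosen with the values known. In the first and second sequence, the capitals mark the tRNA between its neighbours. In the third and the fourth, the capitals mark the bases that belong to both mRNAs. In the last, the capitals mark the end of MT-ND6, which is encoded on the other strand and faces the end of MT-ND5.
MT-RNR1, MT-TV and MT-RNR2 (chrM:1572-1700): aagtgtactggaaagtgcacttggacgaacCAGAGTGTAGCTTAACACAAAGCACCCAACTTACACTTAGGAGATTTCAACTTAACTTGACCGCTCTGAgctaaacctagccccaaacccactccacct
MT-RNR2, MT-TL1 and MT-ND1 (chrM:3200-3334): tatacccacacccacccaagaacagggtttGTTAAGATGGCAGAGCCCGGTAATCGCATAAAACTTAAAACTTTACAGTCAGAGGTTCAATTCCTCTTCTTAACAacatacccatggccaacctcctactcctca
MT-ATP8 and MT-ATP6 (chrM:8497-8602): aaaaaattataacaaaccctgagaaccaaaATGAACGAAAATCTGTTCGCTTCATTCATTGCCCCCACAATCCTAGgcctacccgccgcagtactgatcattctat
MT-ND4L and MT-ND4 (chrM:10730-10796): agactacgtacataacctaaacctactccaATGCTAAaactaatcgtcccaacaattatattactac
MT-ND5 and MT-ND6 (chrM:14119-14178): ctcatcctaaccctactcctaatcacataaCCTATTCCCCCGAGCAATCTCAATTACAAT

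The share of the library on MT- rows moved in opposite directions with the 2 compounds. It was 6.21%, 5.98% and 6.09% of all counts in the Control libraries, 7.19%, 6.99% and 6.91% in CoCl2 and 4.88%, 5.01% and 4.95% in OD. The 3 groups did not overlap. The CoCl2 group was 0.938 percentage points above Control and the OD group lay 1.15 percentage points below it. Split by class, the mRNA share was 5.17% ± 0.0973 (SD, n = 3) in Control, 5.71% ± 0.143 in CoCl2 and 2.85% ± 0.0276 in OD. The rRNA share was 0.912% ± 0.0271, 1.31% ± 0.0334 and 2.09% ± 0.0632 in the same order. With OD the mRNA share was thus lower and the rRNA share higher, so that rRNA made up 41.2% to 42.8% of the MT- counts, compared with 14.7% to 15.3% in Control and 18.2% to 19.3% in CoCl2. tRNA rows held 0.151% to 0.173% of the MT- counts in all 9 libraries.

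**Figure D1:**
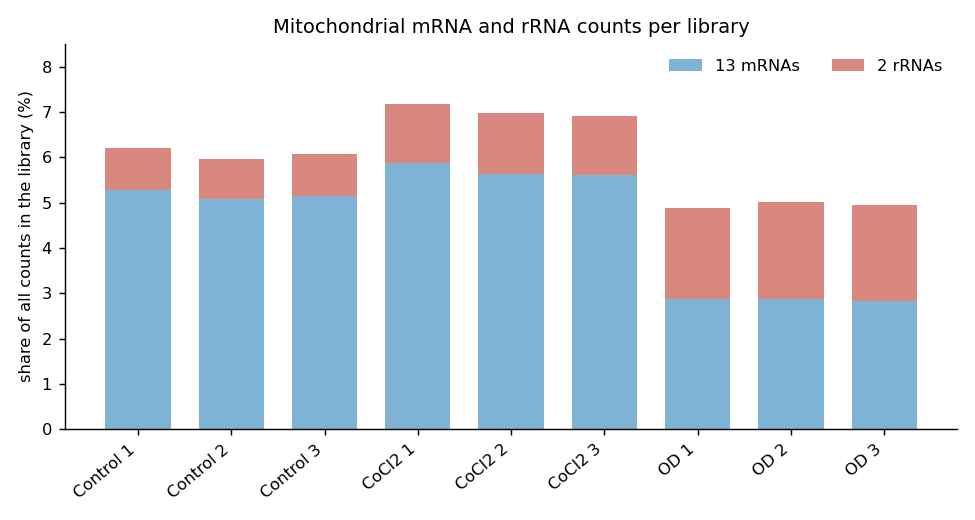
Stacked bars give the percentage of all counts in each of the 9 libraries that fell on the 13 mRNAs (blue) and the 2 rRNAs (red); tRNA rows are too small to draw. The OD libraries have the lowest mRNA part, 2.82% to 2.88%, and the highest rRNA part, 2.01% to 2.13%.

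Levels are given as CPM scaled by the TMM factors. Log2 fold changes come from edgeR's quasi-likelihood test over the 9 libraries with Benjamini-Hochberg adjustment over all 15944 symbols, and SE is their standard error. A transcript is called up- or downregulated when its adjusted p is under 0.05 and its log2 fold change is beyond 1 in size. "Rose" and "fell" rest on the adjusted p alone. Both treatments were compared with the same 3 Control libraries.

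With CoCl2, 4 of the 20 tested transcripts were upregulated and 0 were downregulated, beside 19.9% of all tested symbols called higher and 23.4% called lower. They were both rRNAs, MT-ND1 and MT-TL1. By adjusted p alone, 18 of the 20 rose and 0 fell, beside 40.4% and 42.8% of all symbols, although MT-ATP8 and MT-CO3 lay below 0 when libraries were scaled by size alone. With OD, both rRNAs were upregulated and 7 transcripts were downregulated, beside a background of 9.09% higher and 4.16% lower. The 7 were MT-ATP8, MT-ATP6, MT-CO3, MT-ND3, MT-ND5, MT-ND6 and MT-TL1. By adjusted p alone, 2 rose and 17 fell, beside 32.3% and 33.3%. Set directly against OD, the CoCl2 group had 16 of the 20 transcripts called higher and 0 called lower, where 17.5% and 23.8% of all symbols were called in these directions. With library size alone, 12 were called higher and 1, MT-RNR1, lower. By adjusted p alone, 17 were higher and 1, MT-RNR1, was lower, beside 40.2% and 43.2%. The median log2 fold change of the 13 mRNAs was 0.63 with CoCl2 and -0.97 with OD, and that of all tested symbols was -0.05 and -0.01.

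The plot of levels shows each of these transcripts in map order.

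**Figure D2:**
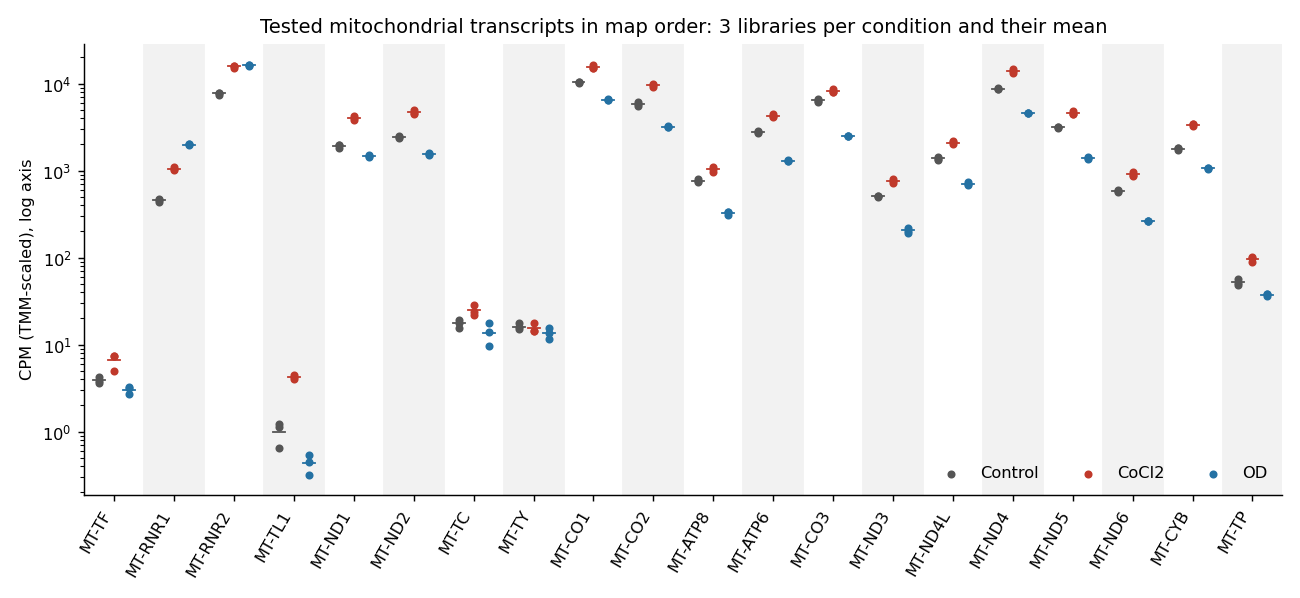
Each point is 1 library and each short line a group mean, on a log axis of TMM-scaled CPM, for the 20 tested transcripts ordered along the mitochondrial genome (grey Control, red CoCl2, blue OD). The OD points lie above Control for the 2 rRNAs and below it for all 13 mRNAs, whose CoCl2 points are the highest on this scaling.

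MT-RNR1 (chrM:648-1601, heavy strand) is the 12S rRNA of the small mitochondrial ribosomal subunit. It was at 465, 438 and 462 CPM in Control, 1098, 1009 and 1036 CPM in CoCl2 and 1967, 1997 and 1998 CPM in OD. The groups did not overlap, with Control lowest and OD highest. The log2 fold change was 1.20 with CoCl2 (SE 0.0403, adjusted p = 7.78e-37) and 2.13 with OD (SE 0.041, adjusted p = 5.52e-49), which is 4.37-fold. The direct comparison put CoCl2 at -0.92 relative to OD (SE 0.0394, adjusted p = 3.38e-31).

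MT-RNR2 (chrM:1671-3229) is the 16S rRNA of the large subunit and follows MT-RNR1 behind MT-TV, as in the first sequence above. Its levels were 7887, 7462 and 7887 CPM in Control, 15918, 15995 and 15252 CPM in CoCl2 and 15754, 16543 and 16456 CPM in OD. On this scaling, both treated groups lay above Control and overlapped each other. The log2 fold change was 1.02 with CoCl2 (SE 0.0413, adjusted p = 1.7e-32) and 1.07 with OD (SE 0.0413, adjusted p = 1.51e-32). CoCl2 and OD differed by -0.05, with a 95% interval of -0.13 to 0.03 (adjusted p = 0.271). With library size alone, this difference was -0.59, so the likeness of the 2 treated groups depends on the scaling. The CoCl2 call of MT-RNR2 is at the threshold: it ended when Control replicate 2 was left out (0.989), with upper-quartile factors (0.92), without a count filter (0.96), with at least 10 counts in every library (0.993), with library size alone (0.52) and when tested against a log2 fold change of 1. The OD call of MT-RNR2 also ended in this last test.

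The 2 rRNAs therefore changed unequally with OD. MT-RNR1 counts were 5.90%, 5.87% and 5.86% of MT-RNR2 counts in Control, 6.90%, 6.31% and 6.79% in CoCl2 and 12.5%, 12.1% and 12.1% in OD. This ratio was chosen after the values had been seen, and it does not depend on the scaling of the libraries. It showed no overlap between groups. The log2 ratio of both rRNAs to the 12 heavy-strand mRNAs was -2.49 ± 0.0316 (SD, n = 3) in Control, -2.10 ± 0.0534 in CoCl2 and -0.44 ± 0.0485 in OD. The differences from Control were 0.38 and 2.05. MT-RNR2 alone gave 0.37 and 1.96, while MT-RNR1 alone gave 0.55 and 3.02.

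Complex I, the NADH dehydrogenase that feeds electrons into the respiratory chain, has 7 mitochondrially encoded subunits. All 7 rose with CoCl2, by 0.56 to 1.07, and all 7 fell with OD, by log2 values between -1.31 and -0.38. MT-ND1 (chrM:3307-4262), the first mRNA after the rRNAs, was at 1943, 1823 and 1960 CPM in Control, 4182, 3778 and 4018 CPM in CoCl2 and 1503, 1457 and 1426 CPM in OD. Its groups did not overlap. It was the one mRNA upregulated with CoCl2, with a log2 fold change of 1.07 (SE 0.041, adjusted p = 1.32e-33), and it fell the least of all 13 mRNAs with OD, at -0.38 (SE 0.0408, adjusted p = 1.01e-12). The CoCl2 call ended with upper-quartile factors (0.965), without a count filter (0.9997) and with library size alone (0.56).

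MT-ND3 was at the other end of the complex I range with OD. It was at 503, 510 and 511 CPM in Control, 758, 793 and 722 CPM in CoCl2 and 203, 220 and 192 CPM in OD, again without overlap. Its log2 fold change was 0.58 with CoCl2 (SE 0.0415, adjusted p = 5.64e-20) and -1.31 with OD (SE 0.043, adjusted p = 2.91e-36). MT-ND2 changed by 0.94 and -0.64, MT-ND4 by 0.68 and -0.94, MT-ND4L by 0.60 and -0.97 and MT-ND5 by 0.56 and -1.17 with CoCl2 and OD, respectively. MT-ND4L and MT-ND4 are read from 1 bicistronic mRNA and share 7 nt, shown in capitals in the fourth sequence. MT-ND4L passed the fold threshold with OD, at -1.005, once OD replicate 2 was left out.

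MT-ND6 (chrM:14149-14673) is the complex I subunit encoded on the light strand. It was at 584, 593 and 571 CPM in Control, 954, 875 and 888 CPM in CoCl2 and 263, 263 and 263 CPM in OD. Its groups did not overlap. It rose by 0.64 with CoCl2 (SE 0.0391, adjusted p = 3.24e-23) and was downregulated with OD at -1.15 (SE 0.0402, adjusted p = 8.76e-35). Relative to the 12 heavy-strand mRNAs, MT-ND6 counts were 1.24%, 1.32% and 1.25% in Control, 1.26%, 1.25% and 1.26% in CoCl2 and 1.06%, 1.06% and 1.08% in OD. The OD libraries lay below the others, while CoCl2 and Control overlapped. Relative to MT-ND5 alone, which ends where MT-ND6 ends on the opposite strand, MT-ND6 was at 18.3% to 18.9% in Control, 19.5% to 19.8% in CoCl2 and 18.6% to 19.3% in OD, so the lower ratio with OD was not seen against this neighbour. The library kit keeps strand, but whether the counting used it was not given in the sources used here. Without it, light-strand RNA and heavy-strand RNA over the MT-ND6 interval cannot be told apart.

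Complex III passes electrons from coenzyme Q to cytochrome c, and MT-CYB, its catalytic cytochrome b, is its one mitochondrially encoded subunit. It was at 1816, 1714 and 1818 CPM in Control, 3406, 3226 and 3419 CPM in CoCl2 and 1074, 1073 and 1030 CPM in OD. The groups were apart from each other. It rose by 0.91 with CoCl2 (SE 0.0395, adjusted p = 7.73e-31) and fell by 0.75 on the log2 scale with OD (SE 0.0396, adjusted p = 1.05e-25).

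Complex IV, cytochrome c oxidase, reduces oxygen to water, and its 3 core subunits come from the mitochondrial genome. MT-CO1 (chrM:5904-7445) was at 10514, 10059 and 10324 CPM in Control, 16193, 15034 and 15041 CPM in CoCl2 and 6625, 6447 and 6384 CPM in OD. MT-CO3 (chrM:9207-9990) was at 6593, 6206 and 6365 CPM in Control, 8579, 8094 and 8022 CPM in CoCl2 and 2487, 2487 and 2482 CPM in OD. Neither showed overlap between groups. MT-CO1 changed by 0.58 with CoCl2 (SE 0.0409, adjusted p = 1.7e-20) and -0.67 with OD (SE 0.0409, adjusted p = 1.46e-22). MT-CO3 changed by 0.37 (SE 0.0398, adjusted p = 1.01e-12) and -1.36 (SE 0.0406, adjusted p = 1.42e-38), which made it the least raised mRNA with CoCl2 and the most lowered with OD. MT-CO2 changed by 0.71 with CoCl2, more than both, and by -0.89 with OD, between them.

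The complex IV mRNAs thus lost their proportions. MT-CO3 counts were 62.7%, 61.7% and 61.7% of MT-CO1 counts in Control, 53.0%, 53.8% and 53.3% in CoCl2 and 37.5%, 38.6% and 38.9% in OD. This ratio, also chosen after the values had been seen and independent of library scaling, fell outside the Control range in all 6 treated libraries.

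Complex V makes ATP from the proton gradient, and MT-ATP8 and MT-ATP6 encode parts of its membrane sector from 1 bicistronic mRNA with 46 shared nt, the capitals of the third sequence. MT-ATP8 was at 790, 759 and 742 CPM in Control, 1087, 1053 and 962 CPM in CoCl2 and 311, 332 and 331 CPM in OD. MT-ATP6 was at 2862, 2748 and 2682 CPM in Control, 4493, 4211 and 4144 CPM in CoCl2 and 1295, 1330 and 1283 CPM in OD. The groups of both were separate. MT-ATP8 changed by 0.44 with CoCl2 (SE 0.041, adjusted p = 4.33e-15) and by -1.23 with OD (SE 0.0421, adjusted p = 2.24e-35), and MT-ATP6 by 0.63 (SE 0.0399, adjusted p = 1.2e-22) and -1.09 (SE 0.0403, adjusted p = 2.04e-33). MT-ATP8 counts were 27.6% to 27.7% of MT-ATP6 counts in Control, 23.2% to 25.01% in CoCl2 and 24.0% to 25.8% in OD, a ratio chosen with the values known. How a read in the shared bases was assigned was not given in the sources used here.

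The rise with CoCl2 depends on the scaling. With library size alone in place of the TMM factors, the median of all symbols moved from -0.05 to -0.55 and that of the 13 mRNAs from 0.63 to 0.13, MT-ATP8 and MT-CO3 turned to -0.07 and -0.14, and MT-TL1 was the 1 transcript still called. Relative to the median of all symbols, the mRNA median was 0.68 above it under both scalings. A change of scaling moves all symbols nearly alike, so this difference could not differ between them and does not test the scaling. The OD values moved little, with mRNA medians of -0.97 and -0.93.

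Along the genome, the change with OD stepped down over the first genes. The log2 fold change dropped by 1.06 from MT-RNR1 to MT-RNR2 and by 1.45 from MT-RNR2 to MT-ND1, across the first and second sequences shown above, and then by 0.26 to MT-ND2. With CoCl2 the same steps were -0.18, 0.04 and -0.12. From MT-ND1 on, the values with OD ran down to MT-CO3 and MT-ND3 and were less negative at MT-ND4L, MT-ND4 and MT-CYB. Over the 12 heavy-strand mRNAs, Pearson's r between the OD change and the distance from the first base of MT-TF was -0.48 and Spearman's rho was -0.47. With CoCl2 they were -0.30 and -0.31. Without MT-CYB, left out after its value had been seen, r and rho were -0.75 and -0.64 with OD and -0.67 and -0.51 with CoCl2 (n = 11). These are descriptions across genes that share libraries and precursors, and both comparisons share the Control libraries. Spearman's rho with transcript length was 0.43 with OD and 0.22 with CoCl2 (n = 12).

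**Figure D3:**
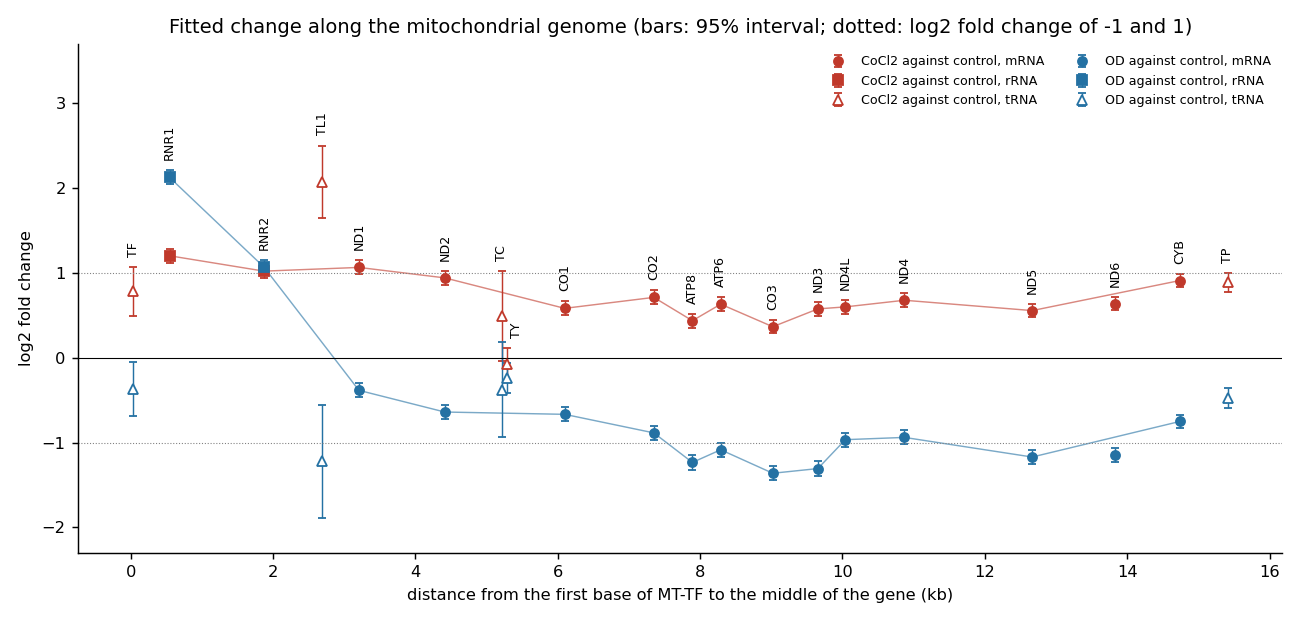
The log2 fold change against Control (y axis, bars 95% interval) is drawn against the distance of each gene's middle from the first base of MT-TF in kb (x axis) for CoCl2 (red) and OD (blue), with lines through the rRNAs and heavy-strand mRNAs. The blue line falls from 2.13 at MT-RNR1 to -0.38 at MT-ND1 and -1.36 at MT-CO3, and the red line stays between 0.37 and 1.20.

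The make-up of the mRNA pool moved in a partly like way with both compounds. As a share of the 13 mRNAs, MT-ND1 was 4.10% ± 0.126 (SD, n = 3) in Control, 5.48% ± 0.154 in CoCl2 and 5.86% ± 0.094 in OD. MT-CO3 was 13.7% ± 0.117, 11.3% ± 0.0965 and 9.96% ± 0.106, and MT-CO1 was 22.1% ± 0.173, 21.2% ± 0.0622 and 25.98% ± 0.283. MT-ND1, MT-ND2 and MT-CYB took a larger part and MT-ATP8, MT-CO3 and MT-ND5 a smaller part than in any Control library in all 6 treated libraries. MT-CO1 was the one mRNA whose share lay below all Control libraries in CoCl2 and above them in OD. The shared Control libraries enter both sets of differences.

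**Figure D4:**
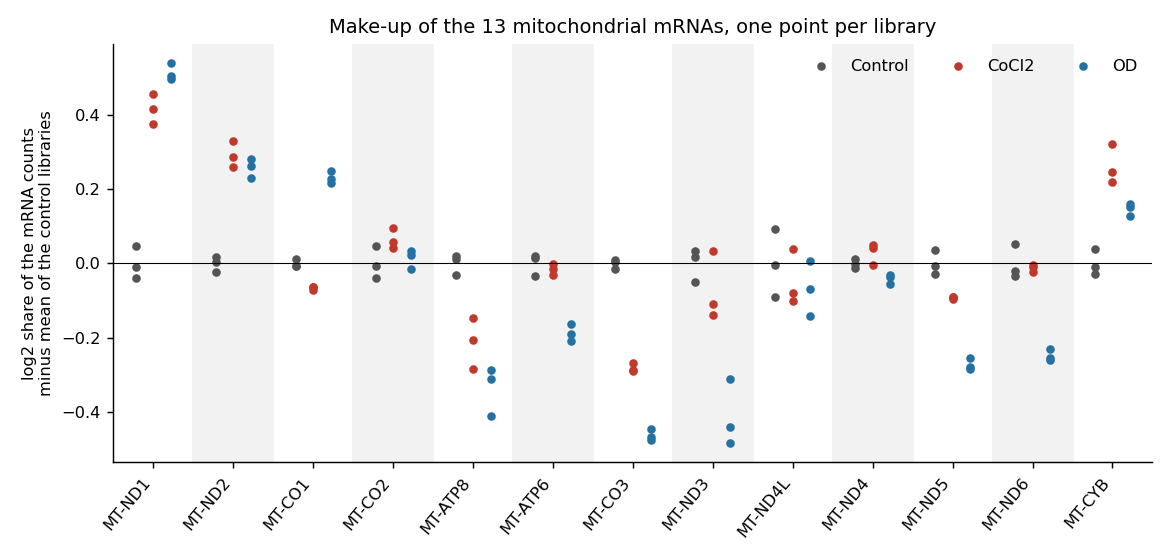
For each of the 13 mRNAs in map order, points give the log2 share of the mRNA counts in 1 library minus the mean of the Control libraries (grey Control, red CoCl2, blue OD). MT-ND1 lies at 0.42 in CoCl2 and 0.51 in OD on average, MT-CO3 at -0.28 and -0.46, and MT-CO1 at -0.07 and 0.23.

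Per kb of transcript, MT-CO2 was the most abundant in Control, at 8550 ± 454 CPM per kb (SD, n = 3), followed by MT-CO3 at 8148 ± 248, and these 2 overlapped. MT-CO1 had 6679 ± 148, MT-ND4 6350 ± 97.6 and MT-RNR2 4968 ± 157 CPM per kb, and MT-RNR2 overlapped with MT-ND4L at 4645 ± 197. MT-ND6 had 1110 ± 20.8 and MT-RNR1 477 ± 15.7 CPM per kb, the lowest of the mRNAs and rRNAs. In OD the order was led by MT-RNR2 with 10424 ± 278 CPM per kb, ahead of MT-CO2 with 4626 ± 72.9, and MT-RNR1 with 2083 ± 18.4 stood above MT-ATP6 with 1913 ± 35.5. How well each transcript was captured by its tail was not measured, so this is an order within the libraries.

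Of the 22 tRNAs, which are 59 to 75 nt long, 9 had 0 counts in all libraries and 8 had at most 3 counts in a library and at most 7 in sum. A count of 0 in a library allows up to 0.133 to 0.232 CPM, from 3 counts, and covers counting error only. The 5 tested rows are mostly shorter than a read, and 3 of them, MT-TC, MT-TY and MT-TP, are on the light strand, where the limit on strand given for MT-ND6 holds too. A full 75-nt read on a shorter row also holds bases next to the gene. Mature tRNA, uncut precursor and neighbouring RNA cannot be told apart in these rows, so the changes below are those of the reads assigned to them. MT-TL1, a leucine tRNA between MT-RNR2 and MT-ND1, had 12, 23 and 22 counts in Control, 72, 55 and 77 in CoCl2 and 7, 10 and 10 in OD. The groups did not overlap. Its log2 fold change was 2.07 with CoCl2 (SE 0.214, adjusted p = 1.38e-13) and -1.22 with OD (SE 0.332, adjusted p = 0.00102), beside a rise of MT-RNR2 on one side and a fall of MT-ND1 on the other side with OD.

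MT-TP, the proline tRNA at the end of the map, had 950, 981 and 1009 counts in Control, 1573, 1313 and 1706 in CoCl2 and 800, 852 and 716 in OD. In CPM the groups did not overlap, and it rose by 0.89 with CoCl2 (SE 0.0556, adjusted p = 7.78e-23) and fell by 0.47 on the log2 scale with OD (SE 0.0593, adjusted p = 2.65e-10). MT-TF, the phenylalanine tRNA ahead of MT-RNR1, rose by 0.78 with CoCl2 (SE 0.143, adjusted p = 1.49e-06) and fell by 0.37 with OD (SE 0.159, adjusted p = 0.0366), from 61 to 142 counts a library, while the adjoining MT-RNR1 rose with both. MT-TC and MT-TY, the cysteine and tyrosine tRNAs, did not pass the test with CoCl2, at 0.49 (95% interval -0.04 to 1.02, adjusted p = 0.0771) and -0.07 (-0.26 to 0.11, adjusted p = 0.455). MT-TY fell by 0.24 with OD (adjusted p = 0.0172), and MT-TC was at -0.38 (95% interval -0.94 to 0.19, adjusted p = 0.203).

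Copies of mitochondrial sequence in the nuclear genome can take reads from the MT- rows or give reads to them. Among 408 pseudogene rows of mitochondrial origin, 8 were tested, and the rows together held 0.766% to 1.20% of the MT- and pseudogene counts. The 5 with the highest mean count were MTATP6P1 (chr1:633696-634376), MTND2P28 (chr1:629640-630683), MTCO1P12 (chr1:631074-632616), MTCO1P40 (chr17:53105734-53106358) and MTND4P12 (chr5:134926660-134928036). MTATP6P1, the largest, changed by 0.75 with CoCl2 and -0.97 with OD, beside 0.63 and -1.09 for MT-ATP6. MTND2P28 changed by 0.93 and -0.67, beside 0.94 and -0.64 for MT-ND2. MTCO1P12 rose with both compounds, by 1.58 (SE 0.0824, adjusted p = 2.38e-25) and 0.49 (SE 0.0884, adjusted p = 2.4e-06), where MT-CO1 rose with CoCl2 and fell with OD. MTCO1P40 changed by 0.62 and -0.59 and MTND4P12 by 0.81 and -0.46.

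In the GRCh38 reference, 36.6% of the 75-base windows of MT-CO1 were also found letter for letter in an annotated pseudogene, as were 34.4% of MT-ND2, 28% of MT-ATP6, 16.3% of MT-ND1, 14.6% of MT-CO3, 10.5% of MT-CO2, 7.1% of MT-ND6 and 0.173% of MT-ND5. MT-RNR1, MT-RNR2, MT-ATP8, MT-ND3, MT-ND4L, MT-ND4 and MT-CYB had 0% among the 404 regions searched. This search was added with the values known. Of the 7 transcripts without a shared window, both rRNAs were upregulated with OD and MT-ATP8 and MT-ND3 were downregulated. MT-ND4L, MT-ND4 and MT-CYB fell with OD by adjusted p alone. The search found exact matches only, and the part of shared sequence in the changes was not tested. How reads that map to several places were counted was not given in the sources used here. Of the pseudogene rows, 13 had no annotated region and were not searched, among them MTRNR2L1, a row related to MT-RNR2, which changed by 1.47 with CoCl2 and 1.37 with OD at 16 to 69 counts a library.

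Nuclear genes supply the machinery that transcribes, processes and tails these transcripts. The list used here also holds genes of mitochondrial DNA replication, RNA decay, RNA modification and ribosome assembly. Of its 53 genes, 52 were tested. With CoCl2, 5 were upregulated and 15 downregulated, beside 19.9% and 23.4% of all symbols, with a median log2 fold change of -0.22. With OD, 0 were upregulated and 2 downregulated, beside 9.09% and 4.16%, with a median of -0.37. By adjusted p alone, 19 rose and 26 fell with CoCl2, beside 40.4% and 42.8% of all symbols. By the same rule, 1 rose and 40 fell with OD, beside 32.3% and 33.3%. POLRMT, the polymerase, rose by 0.89 with CoCl2 (SE 0.0491, adjusted p = 1.25e-25) and fell by 0.28 on the log2 scale with OD (SE 0.0511, adjusted p = 3.31e-06). TFB2M, which opens the promoter, changed by 0.90 and -0.48, and both passed the adjusted p. TFAM, which packs the genome and starts transcription, was at -0.08 with CoCl2 (adjusted p = 0.122) and fell by 0.54 with OD. The elongation factor TEFM was at -0.05 and -0.12 and MTERF1, which binds within MT-TL1 and has been linked to termination, was at -0.03 and -0.16, and neither passed in either comparison.

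PNPT1, a polynucleotide phosphorylase that degrades mitochondrial RNA, was downregulated with both compounds, at -1.29 with CoCl2 and -1.15 with OD, while its helicase partner SUPV3L1 was upregulated with CoCl2 at 1.36 and was at -0.06 with OD (adjusted p = 0.28). SLIRP, which with LRPPRC protects mitochondrial mRNAs, was downregulated with CoCl2 at -1.01 and fell by 0.70 with OD, and LRPPRC changed by 0.20 and -0.23. MTPAP, the mitochondrial poly(A) polymerase, changed by 0.17 and -0.33. In the machinery list, MRM1 (an rRNA methyltransferase) at -3.06, MTRES1 at -2.28 and MRPL12 (a ribosomal protein) at -2.25 changed the most with CoCl2, and MRPL12 at -1.26, PNPT1 and POLG2 (the accessory subunit of the DNA polymerase) at -0.92 with OD. Set against OD, CoCl2 differed the most for MRM1 at -2.305, FASTKD5 (which acts in processing junctions without a tRNA) at 2.05 and POLG2 at 2.01.

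A list of 10 genes held regulators of mitochondrial biogenesis and also the matrix protease genes LONP1, CLPP and CLPX, and 9 were tested. With CoCl2, GABPA (a transcription factor subunit) at 1.45 and CLPX (a matrix chaperone) at 1.27 were upregulated and PPARGC1B at -2.16 was downregulated, beside 19.9% and 23.4% of all symbols. With OD 0 of 9 were called, beside 9.09% and 4.16%, with NRF1 at -0.80, PPRC1 at -0.70 and LONP1 at 0.53 the largest. The median of the list was -0.02 and -0.05. PPARGC1A had 0 to 1 counts in every library and was not tested.

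The nuclear subunits of the same complexes moved in both directions with CoCl2, where 19.9% of all symbols were called higher and 23.4% lower. Of the 36 tested of complex I, 3 were upregulated and 4 downregulated (median -0.15), of the 9 of complex III 0 and 1 (median -0.07), of the 11 of complex IV 1 and 0 (median 0.15), and of the 15 of complex V 0 and 2 (median -0.54). The 3 of complex I were NDUFB9, at 96.8 CPM in Control and 229 CPM in CoCl2, and 2 low rows. These were NDUFV2, at 2.00 and 6.17 CPM, and NDUFA13, at 3.94 and 7.95 CPM. By adjusted p alone, 9 rose and 19 fell in complex I, 2 and 4 in complex III, 6 and 4 in complex IV and 2 and 12 in complex V, beside 40.4% and 42.8% of all symbols. The largest changes were NDUFB1 at -1.77, CYC1 at -1.05, NDUFA4 at 1.14 and ATP5MC1 at -2.06. With OD, 0 subunits of any complex were called, beside 9.09% higher and 4.16% lower. The medians were -0.36, -0.29, -0.06 and -0.49 for complexes I, III, IV and V, and the largest changes were NDUFC1 at -0.75, UQCRQ at -0.53, COX7C at -0.34 and ATP5MC1 at -0.66. Set against OD, CoCl2 differed the most for NDUFB9 at 1.62, CYC1 at -0.53, NDUFA4 at 1.12 and ATP5MC1 at -1.40. By adjusted p alone, 26 of the 36 subunits of complex I, 7 of the 9 of complex III, 4 of the 11 of complex IV and all 15 of complex V fell with OD, and 1, 0, 0 and 0 rose, beside 33.3% and 32.3% of all symbols. COX4I1, the main isoform of the regulatory subunit of complex IV, rose by 0.24 with CoCl2 and was at -0.05 with OD (adjusted p = 0.312), and COX4I2, the isoform linked to low oxygen, had 0 to 1 counts a library.

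**Figure D5:**
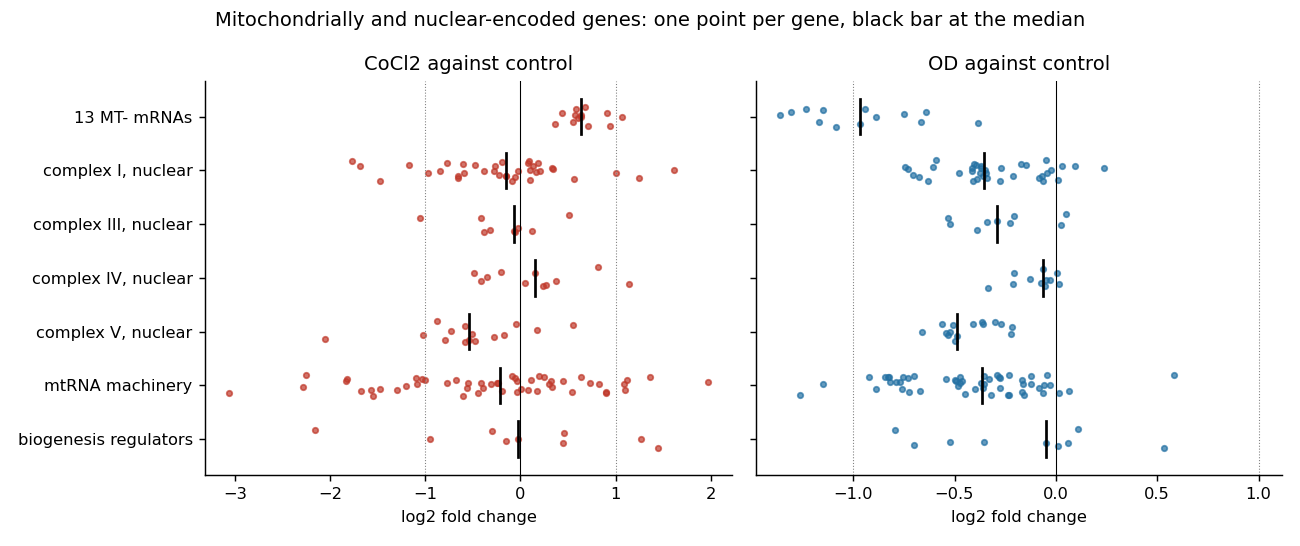
Each point is 1 tested gene and each black bar a list median, on the log2 fold change against Control (left CoCl2, right OD; the 2 panels have different x scales). The 13 MT- mRNAs lie between 0.37 and 1.07 with CoCl2 and between -1.36 and -0.38 with OD, while the nuclear lists spread to both sides with CoCl2.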

How the data were processed

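RNA of 9 uCaco-2 cultures was extracted with all RNA Integrity Numbers at or above 9.7. The authors deposited 1 table of raw read counts per gene symbol. Per the labels and the study's methods, reads were checked with FastQC 0.11.9, trimmed with cutadapt 2.10 and mapped to GRCh38.p13 with STAR 2.7.5b, and counted on a GENCODE annotation; the counting tool, its strand setting and its treatment of multi-mapping reads were not given in the sources used here. No molecular identifiers were used, so counts include copies made in amplification.

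Counts were filtered (filterByExpr), TMM-scaled and fitted with edgeR 4.0.16 (robust quasi-likelihood, R 4.3.3) over all 9 libraries, with Benjamini-Hochberg adjustment over 15944 symbols. A call needed both adjusted p below 0.05 and a change of more than 1 on the log2 scale, the study's own thresholds. The replicates of a group differed by 1.74 to 3.05 times the counting variance over all rows and by 9.25 to 59.1 times over the MT- rows, so all 9 libraries were kept apart. At a given relative spread this ratio grows with the count. The 2 ranges therefore do not show that the MT- rows were less reproducible than other rows. The test was checked on simulated data with large changes of both signs in a small part of the genes and no added shift in scaling. That check does not bear on the scaling of the CoCl2 libraries or on calls near the threshold. Coordinates, lengths and sequences came from the same GRCh38 build with a later GENCODE release. Named were all MT- mRNAs and rRNAs, tested tRNAs, the 5 pseudogene rows with the highest mean count, 11 machinery and biogenesis genes, COX4I1, COX4I2 and the largest changes per list. MTRNR2L1 was named after its values were seen. The members, lists and rules were chosen with earlier results of these data known. Alternatives were RLE, upper-quartile and library-size scaling, TMM without the MT- rows, other filters, DESeq2 1.42.0, fewer libraries, a replicate block, glmTreat and adjusted p alone.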

Additional observations from a re-analysis of the deposited data

How the results depend on the processing

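The count of called transcripts in OD (9, or 6 to 10) and in CoCl2 against OD (16, or 13 to 18) stayed within 1.5 times under every scaling, filter, tool and left-out replicate, with the exception of adjusted p alone in OD (19). The 6 came with glmTreat, which tests against a log2 fold change of 1 and ended the OD calls of MT-RNR2, MT-TL1 and MT-ATP6. The members called in CoCl2 against OD changed with the scaling. With library size alone, MT-TF, MT-ND1, MT-CO1 and MT-TP were no longer called, and MT-RNR1 was called lower at -1.47. Upper-quartile factors also called MT-RNR1 lower, at -1.05. With CoCl2 the count of 4 became 2 with upper-quartile factors, without a count filter and with at least 10 counts in every library, 1 with library size alone and 18 with adjusted p alone. The mRNA median with CoCl2 was 0.53 with upper-quartile factors, 0.13 with library size and 0.57 without the filter, that of OD was -0.93 with library size, and that of CoCl2 against OD was 1.53, 1.12 and 1.60 in the order given for CoCl2 and 1.61 with at least 10 counts. Library size alone lowered the share of called symbols that were higher from 46.0% to 23.9% with CoCl2 and from 42.4% to 18.3% against OD, and moved it from 68.6% to 72.7% with OD. It turned MT-ATP8 to -0.069 and MT-CO3 to -0.14 with CoCl2 and MT-TY to -0.38 against OD, the nuclear complex IV median to -0.35 with CoCl2, and, against OD, the medians of the machinery to -0.41 and of complexes I, III and IV to -0.45, -0.43 and -0.29.

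The MT- share difference was 0.535 points for mRNAs alone and 3.50 points on the TMM-scaled total with CoCl2, and -2.32 points for mRNAs alone with OD. The rRNA to mRNA ratio differed by 0.55 (MT-RNR1 alone) with CoCl2 and by 1.96 (MT-RNR2 alone) and 3.02 (MT-RNR1 alone) with OD. The MT-ND6 ratio, -0.01 with CoCl2, was -0.10 against heavy-strand complex I mRNAs, 0.080 against MT-ND5 and -0.029 to 0.015 with 1 replicate left out. With OD it was -0.25, and 0.024 against MT-ND5. The MT-ND4 share with CoCl2 turned to -0.048 when complex IV mRNAs were left out of the total. MT-TC passed the fold threshold in CoCl2 against OD, at 1.07, without OD replicate 3.

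Same-numbered replicates correlated at -0.005 to 0.038 in their deviations, and differently numbered ones at -0.047 to 0.025. No clear pairing by number was seen, though a weak one could be missed. The replicate block left the counts at 4, 9 and 16 and the mRNA medians at 0.63, -0.97 and 1.66. Apart from what is named above, the causes were not tested. Low counts limit the tRNAs, of which 17 of 22 could not be tested, and MT-TL1 rests on 7 to 77 counts a library. The part of depth, poly(A) selection and the assignment of reads in these low counts was not tested.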
